A study of Homo sapiens with 20 samples.

Results

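The genes described here are 9 human enzymes and cofactors that place, keep or remove 5-methylcytosine, namely DNMT1, UHRF1, DNMT3A, DNMT3B, TET1, TET2, TET3, TDG and MBD4. They were found by their symbols in an expression table of 36076 genes, and all 9 had a row. The libraries came from lung cancer lines given decitabine (DAC), a cytidine analog that is built into DNA and traps DNA methyltransferases there, or phosphate-buffered saline (Mock). DAC was used at 100 nM for 72 h, and cells then grew for 3 days without drug, so that the values describe recovery and not the time of exposure. mRNA was sequenced in A549, H1299, H1792, PC9, CL1-0 and CL1-5. Open chromatin was mapped by Omni-ATAC-seq in all but H1792 and CL1-0. Each line gave 1 library per treatment and assay. CL1-5 is a subline of CL1-0, so these lines are not fully independent. The 5 lines of the study's expression analysis (all but H1792) formed the main comparison, and the lines served as replicates. The p-values therefore measure the spread between lines, and technical error within a line cannot be told apart from it.

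DNMT1 copies methylation onto the daughter strand at replication, and UHRF1 brings it to half-methylated CpG sites. DNMT3A and DNMT3B can methylate sites that carried no methyl group. TET1, TET2 and TET3 oxidise 5-methylcytosine, and the glycosylases TDG and MBD4 cut out oxidised or deaminated bases, which base excision repair replaces with cytosine. DAC acts on DNMT protein, which mRNA levels do not measure.

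Before the results, some facts of the series bear on them. Between 22234485 and 25303899 reads lay on genes in each library apart from H1299, which had 59735913 in Mock and 52634234 after DAC. Genes with few reads had mostly even read numbers in H1299 (81.9% to 85.5%, against 39.2% to 41.5% elsewhere), so its reads are not independent counts. The summed FPKM (reads scaled by gene length and library size, a level comparable between genes) was 416327 in Mock A549 and 326951 after DAC, and scaling each library to a common sum moved the median change of all genes in A549 by 0.33 on the log2 scale. Epithelial markers varied widely. KRT8 was at 1578 FPKM in Mock A549 and 0.15 in Mock CL1-0, where CDH1 was at 0.56. Over the 10 epithelial markers the summed FPKM ran from 1.67 to 3590 in Mock and from 3.83 to 2235 after DAC. Leukocyte markers summed to at most 7.50 FPKM. The 4 fibroblast markers summed to 0.28 to 75.7 FPKM in Mock and 1.17 to 98.4 after DAC, highest in H1792, where COL1A1 was at 68.6 and 74.9. CDH5, the endothelial marker that was found, did not exceed 1.2 FPKM. Their part in the results was not tested, and in bulk samples fewer cells of a type and less RNA per cell cannot be told apart. In the Omni-ATAC-seq data, the names of CL1-5 and PC9 appear to be exchanged between labels and data. Among 143 genes that the mRNA data show in PC9 but not in CL1-5, a promoter peak was found for 91.6% under the label CL1-5 and for 33.6% under the label PC9. For 94 genes of the opposite pattern the shares were 39.4% and 72.3%. Accessibility is therefore given by the label of the library, and Mock was compared with DAC only within a label.

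At the level of mRNA, UHRF1 or DNMT1 had the highest FPKM of the 9 in each of the 12 libraries, and TET2 and TET1 had the lowest in each. DNMT3B was the member whose level differed most between treatments. It was higher after DAC in 6 of 6 lines, against 4.55% of all 22814 genes that were higher in 6 of 6 and 1.78% that were lower in 6 of 6. None of the 9 genes passed the test across all genes (limma, adjusted p under 0.05), which 27 of 22603 genes passed as higher (0.119%) and 0 as lower (0%). Before adjustment, 8.07% of genes had a p under 0.05 as higher and 4.4% as lower, and DNMT3B was the 1 member among them.

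**Figure D1:**
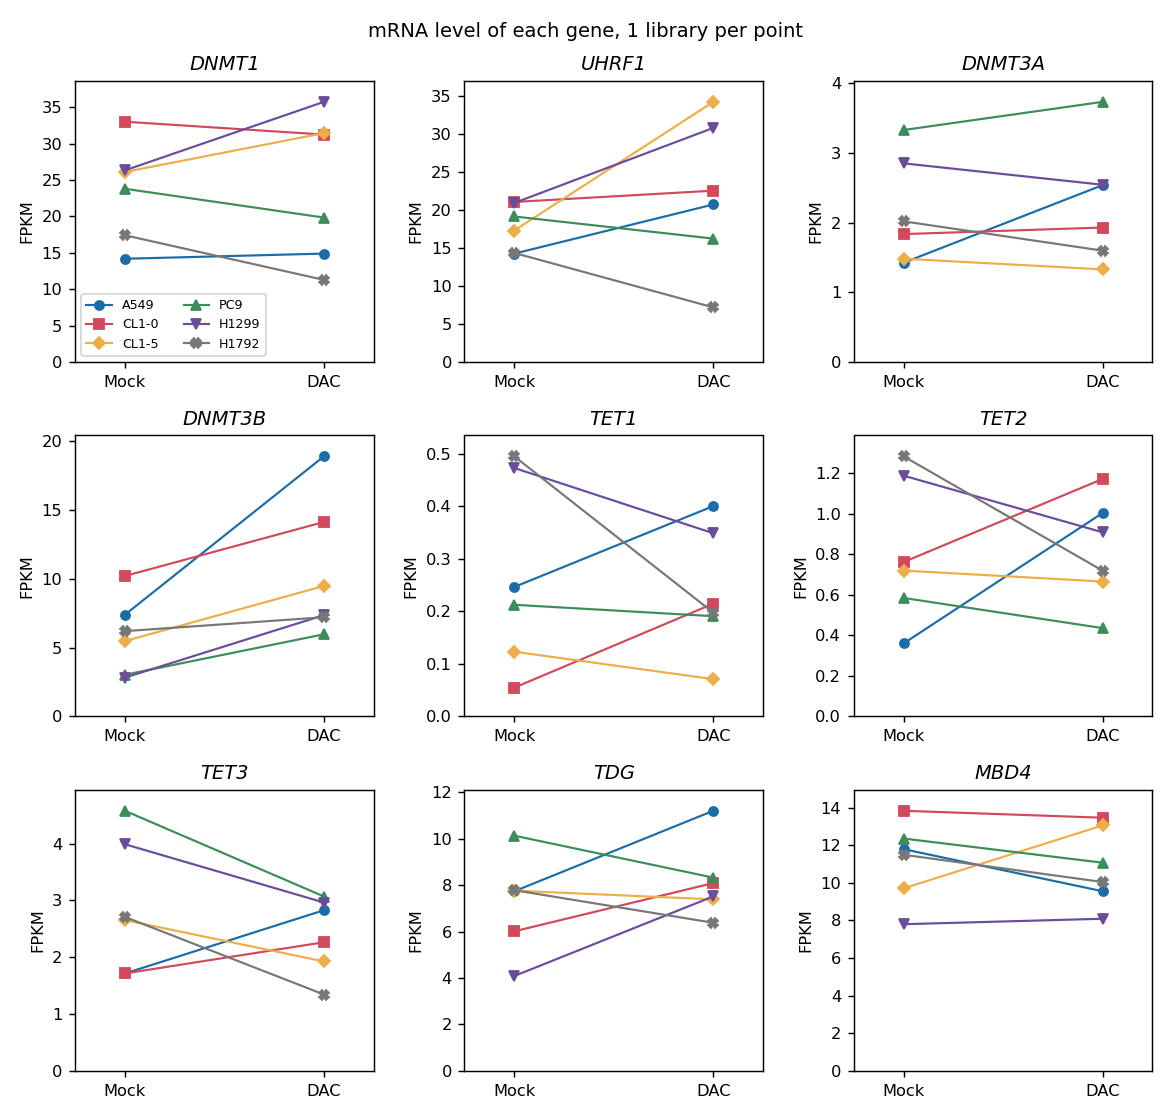
FPKM of the 9 genes in Mock and after DAC, with 1 point per library and a line joining the treatments of a cell line. DNMT3B is higher after DAC in 6 of 6 lines, from 2.82 to 10.2 FPKM in Mock and from 5.96 to 18.9 after DAC, while the other genes move in both directions.

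DNMT3B, a de novo methyltransferase, was measured at 7.38 FPKM in Mock A549 and 18.9 after DAC. In CL1-0 it went from 10.2 to 14.1, in CL1-5 from 5.47 to 9.47 and in PC9 from 3.02 to 5.96. It went from 2.82 to 7.35 FPKM in H1299 and from 6.19 to 7.20 in H1792. Every line was higher after DAC, but the treatments overlapped across lines, since Mock CL1-0 lay above 4 of the 6 DAC libraries. Over the 5 lines the mean was 5.78 ± 3.10 FPKM in Mock and 11.2 ± 5.31 after DAC (SD, n = 5). Its log2 fold change was 0.98 with an SE of 0.16 (95% interval 0.61 to 1.35), about 1.97-fold. The limma p was 0.000378 and the adjusted p was 0.110, at rank 78 of all genes by p. With H1792 the log2 fold change was 0.85 (SE 0.17, limma adjusted p = 0.115). A fit on the recovered reads (limma's voom) put DNMT3B past the threshold, with a log2 fold change of 1.11 and an adjusted p of 0.0397. That fit called 199 of 22603 genes as higher, against 27 in the main fit. It takes reads as independent counts, which those of H1299 are not. Over all settings the adjusted p of DNMT3B ran from 0.0397 to 1.00. The reads behind these values numbered 291 to 1114 in Mock and 639 to 2211 after DAC.

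The place of DNMT3B within the family differed between treatments. Its FPKM was 0.52 of that of DNMT1 in Mock A549 and 1.27 after DAC, and in H1299 the ratio went from 0.11 to 0.21. All 6 lines had a higher ratio after DAC, with values of 0.11 to 0.52 in Mock and 0.21 to 1.27 after DAC. Against DNMT3A the ratio was higher in 6 of 6 lines too. In PC9 and H1299 DNMT3B lay below DNMT3A in Mock (ratios of 0.91 and 0.99) and above it after DAC (1.60 and 2.89). These ratios share the DNMT3B values and add no separate test.

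DNMT3A, the other de novo methyltransferase, stood at a lower level and in no common direction. It went from 1.42 to 2.54 FPKM in A549, from 1.84 to 1.93 in CL1-0 and from 3.33 to 3.73 in PC9. It went from 1.48 to 1.33 in CL1-5, from 2.85 to 2.54 in H1299 and from 2.02 to 1.60 in H1792. The log2 fold change was 0.14 (SE 0.18, limma adjusted p = 0.737), and without A549 it was -0.02.

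Among maintenance genes, DNMT1 was measured at 14.2 and 14.9 FPKM in A549 (Mock, then DAC), 33.0 and 31.3 in CL1-0, and 26.1 and 31.5 in CL1-5. It was at 23.8 and 19.8 in PC9, 26.3 and 35.8 in H1299, and 17.4 and 11.3 in H1792. A549 and H1792 were the lowest lines in both treatments, and DAC values lay on both sides of Mock. The log2 fold change was 0.09 (SE 0.13, 95% interval -0.22 to 0.39, limma adjusted p = 0.785). With H1792 it was -0.03, and without H1299 it was -0.00071, so that no direction can be given for DNMT1.

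UHRF1, which carries DNMT1 to newly copied DNA, went from 14.3 to 20.7 FPKM in A549, from 21.1 to 22.6 in CL1-0, and from 17.3 to 34.2 in CL1-5. It went from 19.2 to 16.2 in PC9, from 20.9 to 30.8 in H1299 and from 14.4 to 7.19 in H1792. The mean over the 5 lines was 18.5 ± 2.84 FPKM in Mock and 24.9 ± 7.42 after DAC (SD, n = 5), and the log2 fold change was 0.39 (SE 0.18, limma adjusted p = 0.427). H1792 was lower after DAC, and the 6-line value was 0.16 (SE 0.24).

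DNMT1 and UHRF1 are transcribed mostly in dividing cells, and a list of 22 division genes was read beside them. Its median log2 change was lowest in H1792 (-0.91), then A549 (-0.56), PC9 (-0.46) and CL1-0 (-0.17), and it was above 0 in CL1-5 (0.36) and H1299 (0.51). All 22 genes were higher after DAC in CL1-5 and in H1299, and 0 were higher in H1792. The sign of DNMT1 was that of the list in CL1-0, CL1-5, PC9, H1299 and H1792, and the sign of UHRF1 was that of the list in CL1-5, PC9, H1299 and H1792. In A549 both genes were higher while the list was lower. On a common sum the list's median in CL1-0 was 0.01 and its signs elsewhere did not change. DNMT3B was higher in lines where the list was lower as well as in those where it was higher. The part of division in the values of DNMT1 and UHRF1 was not tested.

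**Figure D2:**
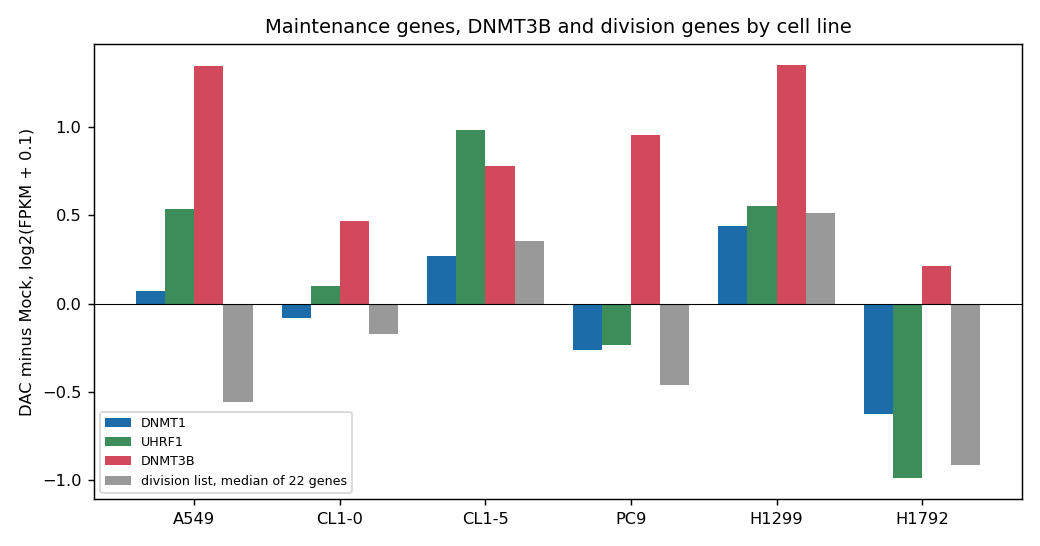
Change in log2(FPKM + 0.1) after DAC for DNMT1, UHRF1 and DNMT3B, beside the median of the 22 division genes, in each of the 6 cell lines. DNMT3B is above 0 in every line, from 0.21 in H1792 to 1.35 in H1299, while DNMT1 is below 0 in CL1-0, PC9 and H1792 and UHRF1 in PC9 and H1792.

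The 3 TET dioxygenases were measured at low levels and split the lines in the same way. TET2 went from 0.36 to 1.00 FPKM in A549 and from 0.76 to 1.17 in CL1-0. It went from 0.72 to 0.66 in CL1-5, from 0.58 to 0.44 in PC9, from 1.19 to 0.91 in H1299 and from 1.28 to 0.72 in H1792. TET3, the most abundant of them, was at 1.72 and 2.83 FPKM in A549 and 1.72 and 2.27 in CL1-0 (Mock, then DAC). It went from 2.66 to 1.93 in CL1-5, from 4.58 to 3.07 in PC9, from 3.99 to 2.96 in H1299 and from 2.71 to 1.34 in H1792. TET1 was under 0.5 FPKM in every library, and its values rest on 12 to 251 reads. It went from 0.25 to 0.40 in A549 and from 0.055 to 0.21 in CL1-0, where the reads numbered 12 and 59. In CL1-5 it went from 0.12 to 0.07, in PC9 from 0.21 to 0.19, in H1299 from 0.47 to 0.35 and in H1792 from 0.49 to 0.20. All 3 genes were thus higher after DAC in A549 and CL1-0 and lower in the other lines, although TET1 in PC9 was backed by 41 reads in each treatment. By the quantile scale TET1 was higher in 1 of 6 lines, and on a common sum in 3 of 6. The difference between lines was not tested, since each line has 1 library per treatment. Over the 5 lines the log2 fold changes were 0.14 for TET1 (SE 0.28), 0.20 for TET2 (SE 0.28) and -0.07 for TET3 (SE 0.22), with limma adjusted p-values of 0.843, 0.766 and 0.907.

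The summed FPKM of DNMT1, DNMT3A and DNMT3B was 5.61 to 17.8 times that of the TET genes in Mock and 7.99 to 15.9 times after DAC. The ratio went down in A549, from 9.90 to 8.58, and in CL1-0, from 17.8 to 13.0. It went up in the other lines, as in H1299 from 5.66 to 10.8 and in PC9 from 5.61 to 7.99. No common direction held over the 6 lines.

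TET1 had the fewest CpG sites in the 250 bases before its start among the 9 genes, 9, and TET3 the most, 37. The median of the same window over 18277 coding genes was 19. The TET1 window lies at chr10:70319844-70320093 on the plus strand of GRCh37 (hg19), directly before the canonical transcript start, and is shown as the poorest of the 9 in CpG sites, which are in capitals.
TET1 upstream: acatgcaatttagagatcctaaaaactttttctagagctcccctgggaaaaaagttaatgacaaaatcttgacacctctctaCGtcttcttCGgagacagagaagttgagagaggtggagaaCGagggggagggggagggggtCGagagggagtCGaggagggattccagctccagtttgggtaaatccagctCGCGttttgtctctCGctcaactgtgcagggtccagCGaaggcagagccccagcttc
Its GC content was 51.6%, against 84% for TET3.

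The glycosylases were expressed at middle levels. TDG, which removes oxidised cytosines left by TET enzymes, went from 7.74 to 11.2 FPKM in A549, from 6.01 to 8.09 in CL1-0 and from 4.09 to 7.52 in H1299. It went from 7.77 to 7.39 in CL1-5, from 10.1 to 8.33 in PC9 and from 7.79 to 6.38 in H1792. Its log2 fold change was 0.29 (SE 0.18, limma adjusted p = 0.521). MBD4, which acts on thymine and uracil opposite guanine at CpG sites, lay between 7.80 and 13.8 FPKM in all 12 libraries, the narrowest range in fold terms of the 9 genes. Its mean was 11.1 ± 2.36 FPKM in Mock and 11.05 ± 2.28 after DAC (SD, n = 5), and its log2 fold change was -0.004 (95% interval -0.31 to 0.30). It was higher in 2 of 6 lines as deposited and in 5 of 6 on a common sum, so its direction depends on the scale. The MBD4 gene overlaps IFT122 on the opposite strand, and the strand setting of the counting was not given in the sources used here.

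**Figure D3:**
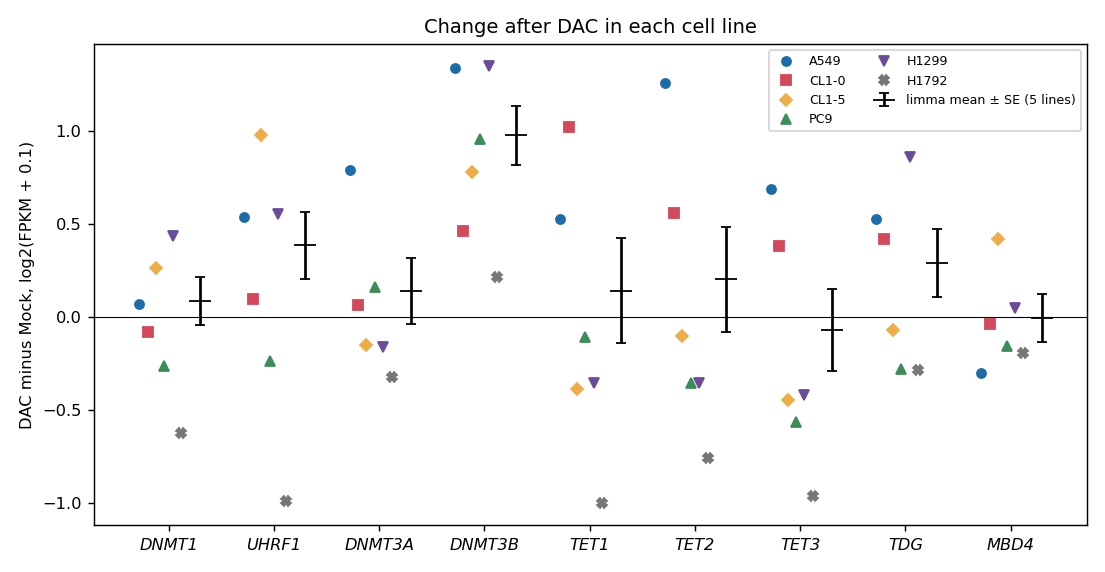
Change in log2(FPKM + 0.1) after DAC for each gene and cell line, with the limma mean and SE over the 5 lines without H1792. The DNMT3B mean of 0.98 stands above 0 with all 6 lines, and for TET1, TET2 and TET3 the points of A549 and CL1-0 lie above 0 and the others below.

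Members were also counted line by line, as at least 1.5-fold higher or lower after DAC on the FPKM + 0.1 scale, which shrinks the fold of low genes. Those higher were DNMT3A, DNMT3B, TET2 and TET3 in A549 (27.4% of all genes were that much higher and 17% lower). In CL1-0 it was TET1 (15.7% higher and 6.17% lower), and in CL1-5 UHRF1 and DNMT3B (13.7% and 12.1%). In PC9 it was DNMT3B (18.8% and 8.04%), and in H1299 DNMT3B and TDG (15.6% and 9.27%). On this scale no member was that much lower in these 5 lines. Without the pseudocount TET1 was 1.63-fold higher in A549 and TET2 1.54-fold higher in CL1-0, and TET1 in CL1-5 was at 0.576 of its Mock level, on 31 reads in Mock and 16 after DAC. H1792 had 0 members higher (20.6% of all genes) and 5 lower (14.7%), namely DNMT1, UHRF1, TET1, TET2 and TET3. On a common sum the number higher in A549 was 7 and that in CL1-0 was 4, so these counts move with the scale. The median log2 change of all genes moved too, from 0.08 to 0.41 in A549 and from 0.006 to 0.18 in CL1-0. The share of all genes past 1.5-fold was not counted on a common sum, so the counts there have no share beside them. The share of members was near or below that of all genes in several lines, and with 9 genes and 1 library per treatment these counts are descriptions.

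Levels were also compared between lines, with each line's Mock and DAC library as its pair and treatment as a term. The level differed between lines for DNMT1 (limma F-test, adjusted p = 0.00692), DNMT3B (0.00620) and DNMT3A (0.0318), and for 78.4% of all 22814 genes. DNMT3A lost this call on a common sum (adjusted p = 0.128). DNMT1 ran in the order CL1-0, H1299, CL1-5, PC9, A549, H1792, and the ends differed by 1.19 on the log2 scale (limma adjusted p = 0.00774). DNMT3B ran in the order CL1-0, A549, CL1-5, H1792, H1299, PC9, with 1.47 between the ends (adjusted p = 0.00525 by limma). DNMT3A was highest in PC9 and lowest in CL1-5, 1.27 apart (limma adjusted p = 0.0110). The ends were picked by the same values that are compared, and the adjustment ran over genes and not over pairs of lines. The p-values of the ends are thus too small, and the F-test is the test of a difference between lines. No neighbours in the order of any of the 9 genes passed the adjusted threshold. The nearest to it were A549 and CL1-5 for DNMT3B, 0.71 apart (limma adjusted p = 0.113), and PC9 and A549 for DNMT1, 0.58 apart (0.130).

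Of the genes outside the 9, those whose log2 level followed each member most closely over the 12 libraries were found by Pearson's r among 13356 genes whose mean FPKM reached 1. These values describe libraries that share lines and treatments, and each is among the highest of 13356 values over 12 libraries. Such a pick gives high values among unrelated genes too, and no test was made. DNMT1 was followed most closely by LMNB2 (r = 0.97), CDC25A (0.95) and TAF5 (0.94). For UHRF1 they were ZNF367 (0.91), TMPO (0.91) and AHCTF1P1 (0.91), and for DNMT3A CIPC (0.93), NPEPPS (0.93) and HERC2P3 (0.92). DNMT3B was followed by DUSP9 (0.88), BTG2 (0.85) and AEN (0.84). TET1 was nearest to ZNF609 (0.92), LRRC37A2 (0.90) and CLASP1 (0.90), TET2 to FBXO30 (0.95), ACVR2B (0.91) and REST (0.89), and TET3 to SMCHD1 (0.92), CMTR2 (0.92) and SPIN1 (0.91). TDG was nearest to SNORD103A (0.88), STAG3L5P (0.87) and TFRC (0.86), and MBD4 to PPAN (0.92), SAMD1 (0.92) and MRPL20-DT (0.92). Among the 9 genes themselves the highest values were 0.82 for DNMT1 with UHRF1 and 0.79 for DNMT3A with TET3.

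Genes that work with the 9 were read from 5 lists of the pathway, and none of their genes passed the adjusted threshold in either direction. The median log2 fold change was 0.07 over all genes tested and 0.01 over those whose mean FPKM in the fit reached 1. For 8 readers of methylated CpG it was 0.04, with 0 genes below an unadjusted p of 0.05. Among them MBD3 and MBD2 had the lowest values (-0.25 and -0.13), and ZBTB38 and ZBTB33, which bind methylated DNA through zinc fingers, the highest (0.30 and 0.26). For 9 tested partners of the methyltransferases the median was -0.02. LIG1, the ligase that seals newly copied strands and recruits UHRF1, had the lowest value, -0.41 (SE 0.13, limma adjusted p = 0.298). Picked as the lowest over these lines, LIG1 was lower in each of the 5, at 13.1 ± 5.81 FPKM in Mock and 9.64 ± 3.39 after DAC (SD, n = 5). KDM1A was at -0.28, USP7, which removes ubiquitin from DNMT1 and UHRF1, at 0.13, and the remodeler HELLS at 0.26. The 8 genes of TET partners and of 2-oxoglutarate supply had a median of 0.07, from D2HGDH (-0.32) and IDH1 (-0.28) to CXXC5 (0.34).

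The base excision repair list holds other glycosylases as well as steps after TDG and MBD4. It had a median of -0.13 over 13 genes, and 2 of the 13 had values above 0. Unadjusted p-values under 0.05 were found for 0 genes as higher and 3 as lower, against 8.07% and 4.4% of all genes. The 3 were NTHL1, XRCC1 and MUTYH, the last named after its value was seen. Genes at low levels weigh on the shares of all genes. Among the 13233 genes whose mean FPKM in the fit reached 1, 913 were higher and 860 lower at that p. XRCC1, the scaffold of single-strand break repair, had a log2 fold change of -0.58 (SE 0.12, limma adjusted p = 0.181), with a mean of 14.2 ± 8.68 FPKM in Mock against 9.50 ± 6.02 after DAC (SD, n = 5). NTHL1, a glycosylase for oxidised pyrimidines, was at -0.70 (SE 0.21, limma adjusted p = 0.295), and MUTYH at -0.40. These 3 genes were lower in each of the 5 lines, which picking them by their values over the same lines favours. NEIL1 (0.01) and NEIL3 (0.003) had the highest values. On the list for the cycle that supplies S-adenosylmethionine, the methyl donor, the median was -0.05 over 10 genes, 2 of them above 0. Of the 10, 3 had an unadjusted p under 0.05, all as lower. SHMT2, which feeds one-carbon units, was at -0.45 (SE 0.18, limma adjusted p = 0.372), and AHCY, which clears S-adenosylhomocysteine, at -0.38 (SE 0.15, limma adjusted p = 0.382). The third was AHCYL1 (-0.30), named after its value was seen. It is a relative of AHCY, and its part in the cycle was not tested. MTRR (0.20) had the highest value. The division list had a median of -0.07 over its 22 genes, with 0 genes at an unadjusted p under 0.05.

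Omni-ATAC-seq, which marks DNA open to a transposase, was read as broad peaks called in each library, 45354 to 97584 per list. A promoter peak is one within 1000 bp of the start of a coding transcript of the gene. Of 18465 coding genes, 73.1% to 79.8% had one in a given list and 64.9% in all 8 lists. All 9 members had promoter peaks. In 8 of them the peak was in all 8 lists, and for UHRF1 it was in 7, with none in the DAC library labelled CL1-5. With a window of 3000 bp UHRF1 had a peak in all 8 lists. Since fold enrichments of separately called lists are comparable by rank only, each gene's strongest promoter peak was expressed as its percentile among the 18465 genes of its list. An exact two-sided sign-flip test over 4 lines cannot give a p below 0.125.

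The glycosylase genes had the most accessible promoters of the 9. TDG lay between the percentiles 98.7 and 99.8 in all 8 lists, with fold enrichments of 8.43 to 12.8 over background, and MBD4 between 91.2 and 98.6. TET2 followed with a mean of 76.2 in Mock and DNMT1 with 68.6. TET1 averaged 40.7 and UHRF1, one of the most abundant transcripts of the family, 37.6, so that mRNA levels and promoter percentiles were ordered differently. The TDG peak at chr12:104359393-104360044 covers the first exon, and in 5 of 8 lists the depositors' annotation assigns it to C12orf73, the neighbour.

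DNMT3B was the member whose promoter percentile was lower after DAC in 4 of 4 lines. It went from 72.6 to 51.1 in A549 and from 56.0 to 44.7 in H1299. Under the label CL1-5 it went from 62.5 to 33.7, and under the label PC9 from 56.0 to 48.6. The mean change was -17.3 ± 9.71 (SD, n = 4, exact permutation p = 0.125), and the median change over all genes was -0.68. This value depends on which starts and peaks are counted, because coding transcripts also start near a peak in intron 1. That peak was the strongest within the window in both treatments of A549 and under the label PC9, and in Mock under the label CL1-5. Under the label CL1-5 it lay 716 bp from the nearest coding start in Mock and 1084 bp after DAC, outside the window, while its fold enrichment was 5.58 and 5.53, so that the fall to 33.7 compares 2 different peaks. With the canonical start alone, an alternative chosen after seeing the data, it was -5.75 with 1 line higher, and with a window of 3000 bp it was -6.63. By summed peak width it was 7.45, that is, higher after DAC. With the canonical start alone, the member that was lower in 4 of 4 lines was TET3, with a mean change of -6.48. The lower percentile and the higher mRNA level of DNMT3B are set side by side here, and their relation was not tested. For UHRF1 the mean change was -6.69 ± 9.21 (SD, n = 4, exact permutation p = 0.25), and for the 7 other members it ran from -2.89 to 1.82.

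Peaks that overlap between lists were merged into regions. Of 104 such regions in and around the 9 genes, 14 were found in all 8 lists, against 9.65% of 208376 regions in the genome. Among the 14, the region at chr19:10341624-10342328 lies in the span of DNMT1, and its peaks are listed for S1PR2. DNMT3B had 3 of the 14. One covers the canonical start and first exon. Another lies in intron 1 at chr20:31365618-31367766, centred 16501 bp from the start, and the last lies in intron 7 at chr20:31377726-31378278. At the start the fold enrichment was 5.12 and 5.24 in A549 (Mock, then DAC) and 5.52 and 3.92 in H1299. Under the label CL1-5 it was 4.49 and 3.21, and under the label PC9 5.20 and 4.28. The intron 1 peak had 7.75 and 5.46 in A549 and 4.69 and 3.10 in H1299. Its values were 5.58 and 5.53 under the label CL1-5 and 5.82 and 4.59 under PC9. The intronic peak was thus the stronger of both in A549 and under both exchanged labels, and the weaker one in H1299.

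UHRF1 had more peaks after DAC in each line, and DNMT3B in 3 of 4, with 3 or 4 peaks in Mock and 4 or 5 after DAC. For UHRF1 the lists held 6 peaks in Mock A549 and 10 after DAC, 3 and 8 in H1299, 5 and 8 under the label CL1-5, and 2 and 10 under the label PC9. DNMT1 had 5 and 7, 3 and 6, 8 and 11, and 5 and 11 in the same order. Its counts include in each list a peak listed for S1PR2, a gene that overlaps DNMT1 on the same strand. The DAC lists were longer as a whole in all 4 lines, for example 58734 peaks in Mock A549 and 78199 after DAC. Regions found in the 4 DAC lists and in no Mock list made up 0.207% of all merged regions, and the reverse 0.00624%. Members had 2 of the first kind, 1 in UHRF1 and 1 in DNMT1, and 0 of the second.

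The UHRF1 region lies at chr19:4930594-4931108, 21338 bp from the canonical start, over exon 4 and the intron around it. Its fold enrichments after DAC were 3.94 in A549, 2.93 in H1299, 3.05 in the library labelled CL1-5 and 3.19 in that labelled PC9. The DNMT1 region lies at chr19:10246218-10247012, over exons 38 and 39 of 41, with 3.80, 2.28, 3.08 and 2.69 in the same order. When the longer list of each line was cut to as many peaks as the shorter, an alternative chosen after seeing the data, the UHRF1 region remained in 4 DAC lists and the DNMT1 region in 2. The share of all merged regions was not recounted after this cut. The part of UHRF1 common to the 4 DAC peaks, chr19:4930792-4930985 on the plus strand of GRCh37, holds 16 CpG sites, given in capitals. The matching stretch of DNMT1 holds 18 in 250 bases.
UHRF1 region after DAC: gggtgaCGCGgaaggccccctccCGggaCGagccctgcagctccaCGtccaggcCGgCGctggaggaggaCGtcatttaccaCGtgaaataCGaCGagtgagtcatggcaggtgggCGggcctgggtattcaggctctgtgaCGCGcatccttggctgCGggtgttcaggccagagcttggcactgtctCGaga
The bases up to 4930888 belong to coding exon 4 and the rest to the intron after it.

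The start of UHRF1 was the one of the 9 with the letters of an E2F site, TTTGGCGC or TTTCCCGC on either strand, in the 250 bases before the canonical start. E2F factors drive genes of DNA replication. These letters occur in 2.75% of the 18277 windows, and in UHRF1 TTTCCCGC lies on the minus strand at chr19:4909499-4909506, 14 bases from the start. The CCAAT letters occur in 34.4% of windows and were found before UHRF1, TDG and MBD4. The stretch shown is the nearest 250 bases that no annotated exon covers, chr19:4909192-4909441 on the plus strand, with CpG sites in capitals.
UHRF1 upstream: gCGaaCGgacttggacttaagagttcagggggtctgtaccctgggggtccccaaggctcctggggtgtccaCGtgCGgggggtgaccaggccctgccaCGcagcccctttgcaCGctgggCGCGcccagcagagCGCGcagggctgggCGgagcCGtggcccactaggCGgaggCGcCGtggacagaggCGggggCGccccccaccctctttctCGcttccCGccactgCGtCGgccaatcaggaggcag
It holds 21 CpG sites and ends 71 bases before the start, so that the TTTCCCGC letters lie outside it. A match of letters describes the sequence and no binding was measured.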

How the data were processed

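mRNA-seq was measured in 12 libraries (6 lines, Mock and DAC) and Omni-ATAC-seq in 8 (4 lines). The authors trimmed and aligned the reads to hg19, by the methods with RSEM and bowtie2 and by the submitters' processing notes with TopHat2 2.1.1, counted them per GENCODE gene, and deposited the FPKM that DESeq2 1.24.0 gave. In the same table the authors deposited a mean normalized signal per gene, and also their own fold changes and p-values, which were not used. For accessibility, the authors called broad peaks per library with MACS2 2.2.5 after alignment with BWA 0.7.17-r1188, and deposited the fold enrichment ratio and the −log10 q-value of each peak. Columns of values that match no sample numbered 0.

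Members were matched by symbol. The members and gene lists were chosen with earlier results of these data known. The text names the 9 members, from each pathway list the genes past the adjusted threshold and the 2 highest and 2 lowest log2 fold changes, and the 3 genes most like each member in pattern. Some items that this rule or the sequence steps would give are not reported here.

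Reads were recovered from FPKM and the mean signal (100% of values within 0.05 of a whole number in each library). Genes whose mean FPKM reached 0.1 were taken as log2(FPKM + 0.1) into limma 3.58.1 (R 4.3.3), where cell line was a block and empirical Bayes used a trend, and p-values were adjusted by Benjamini-Hochberg. This scale understates the fold change of genes at low levels. Mock and DAC cells of a line come from 1 parental culture, which is where the pairing comes from. Deviations from treatment means had a correlation of 0.73 to 0.90 inside a line and no more than 0.11 across lines. Genes at least 1.5-fold higher or lower within a line, and genes higher or lower in all lines, were counted over genes whose mean FPKM over the 12 libraries reached 0.1. The fit was tested on simulated data.

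Promoter ranks and exact sign-flip permutation tests used Python 3.11.15, numpy 2.4.6 and scipy 1.17.1, merging peaks that share a base into regions. Sequences and gene models come from GRCh37 with GENCODE, the build of the peak lists: no list had a peak past a chromosome's end. The depth of the Omni-ATAC-seq libraries is unknown here. Alternatives were H1792 included, no replicate block, other pseudocounts, filters and scalings, no trend, voom, each line left out, and for peaks other windows, assignments, thresholds and measures. Figures were drawn with matplotlib 3.10.9.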

Additional observations from a re-analysis of the deposited data

Results flagged for a closer look

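The TET1 promoter percentile in the DAC library of A549 was 49.0, and the other 3 DAC libraries lay between 39.7 and 40.4. Its gap to the nearest library was 0.92 of the whole range, above the critical value for 4 samples. It was the 1 such value among 45 groups of 4 or 6 libraries examined. Chance alone passes this limit in about 1 of every 20 groups, so 1 value among 45 is no more than chance gives.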

How the results depend on the processing

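The 27 genes that passed as higher became 53 with H1792, 41 on a common sum, 199 by voom, 17 by quantile normalization, 10 with no replicate block, 6 with no trend, 2 with no filter and 0 with a pseudocount of 1. Without single lines they numbered 0 to 22, with 0 without A549 and without CL1-5, 5 without CL1-0 and 12 without PC9. Genes passing as lower numbered 0 to 1 without single lines and 0 otherwise (limma), the 1 being found without H1299. DNMT3B by voom was the 1 member past the threshold in any setting. Under the pairing, the replicate block changed no member's call. On a common sum the median log2 change of all genes was 0.19 in place of 0.07.

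DNMT3B, UHRF1 and TDG kept their direction in every RNA setting. The others did not. With H1792, DNMT1 was at -0.031 and TET1 at -0.048. On a common sum TET3 was at 0.052 and MBD4 at 0.12. By quantile normalization TET1 was at -0.21 and MBD4 at 0.015, and by voom MBD4 was at 0.11. Leaving out single lines gave -0.00071 to 0.17 for DNMT1, -0.019 to 0.22 for DNMT3A, -0.078 to 0.27 for TET1, -0.061 to 0.34 for TET2, -0.26 to 0.053 for TET3 and -0.11 to 0.070 for MBD4. TET1 and TET2 are absent at a mean FPKM of at least 1, which removes them. The number of members whose level differed between lines was 2 or 3.

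Promoter percentile changes turned by summed peak width for DNMT1 (-1.89), DNMT3B (7.45), TET2 (7.66), TET3 (-7.83), TDG (-3.36) and MBD4 (-7.17). By the peaks listed for a gene they turned for TET3 (-3.38) and TDG (-64.2), whose peak is listed for C12orf73 in 5 of 8 lists. The value for MBD4 (-1.36) holds no peak, since its promoter peak is listed for IFT122 in all 8 lists, and is a shift among tied genes. With the canonical start alone TET3 was at -6.48. Without single lines the changes ran from -5.47 to 5.49 for DNMT1, -1.55 to 1.897 for DNMT3A, -4.67 to 0.51 for TET2, -5.71 to 7.51 for TET3 and -0.15 to 0.282 for TDG. With equal numbers of peaks 1 of the 2 member regions found after DAC alone was left, and the share of all regions was not recounted. Apart from the causes named here, the cause was not tested. With 4 lines no promoter change could pass a threshold, and TET1, at 12 to 251 reads, is the member for which depth limits most.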
